A study of Mus musculus with 4 samples.

Results

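The RNA of mouse embryonic stem (ES) cells that carry fosBd/d alleles was set against that of fosB-null ES cells through the wild-type ES cells against which each mutant had been hybridised. The comparison used all 4 of the study's 4 cDNA microarrays, 2 for each mutant. The fosBd/d cells are homozygous for an allele that encodes only ΔFosB, the short form of FosB, and the fosB-null cells lack the gene's product. Both mutants and the wild type were grown without feeder cells, kept without serum for 72 h and harvested 4 h after serum was returned. The labels name no cell line or clone for any of the 3 genotypes. No array carried both mutants, so each difference between them is a difference of 2 ratios to wild type.

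FosB is a subunit of AP-1, a dimer of a Fos-family and a Jun-family protein that binds DNA at TGANTCA sites (N is any base) and that serum induces. ΔFosB lacks the C-terminal transactivation domain of FosB but keeps the parts that bind DNA and Jun proteins. ES cells stand for the inner cell mass of the embryo. They can give rise to primitive endoderm, which forms visceral endoderm (an absorptive, lipoprotein-secreting epithelium) and parietal endoderm (migratory cells that lay down the thick basement membrane of the yolk sac).

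Each array gave 1 log ratio per probe for 9480 probes, taken as log10 and converted to log2. Of these probes, 6566 stood for a single gene, 392 for several and 2522 for none listed, and only the 6566 were named; they covered 6025 genes. The log2 ratios had an SD of 0.824 and 0.652 on fosBd/d replicates 1 and 2 and of 0.436 and 0.542 on fosB-null replicates 1 and 2. Ratios hold no level, so the labelled cell type could not be checked from levels, and 3 of 9 defining ES markers were measured (Zfp42, Dppa3 and Utf1). Probes that name Fosb were not analysed here, so the targeted gene gives no check of the labels.

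The fosB-null ratio has no settled direction, so every difference is given in 2 readings. In the reading as deposited, the mean fosB-null ratio was subtracted from the mean fosBd/d ratio. In the reading with the sign turned, the fosB-null ratio was multiplied by -1 first. Between the mutants, arrays with the mutant in the same labelled dye had a negative correlation over the probes (r = -0.463 for replicate 1, r = -0.369 for replicate 2), although the wild type is common to them. Arrays with the mutant in opposite dyes correlated positively between the mutants (r = 0.336 and r = 0.326). The 2 arrays of a mutant, which are averaged throughout, correlated negatively with each other, with r = -0.125 for fosBd/d and r = -0.318 for fosB-null. A positive fosBd/d ratio is likely higher in the mutant. The dye names together with the sign marks on exact zeros read it so, as does a common mutant-over-wild-type convention. By the dye names alone, the 2 arrays of each mutant would have opposite directions. For fosB-null, the dye names together with the sign marks on exact zeros give wild type over mutant, which is the reading with the sign turned, and the reading as deposited rests on the common convention alone. The labels' colour words contradict the dye names; read by them, every difference with the sign turned would have the opposite sign. "Higher in both readings" means that both fosBd/d values lay above both fosB-null values, as deposited and turned; this happens where fosBd/d departs from wild type by more than fosB-null does in either direction.

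No single probe passed the test of the difference. A limma model in which each mutant and the dye had their own term left 1 residual degree of freedom and called 0 of 9480 probes in either reading at a Benjamini-Hochberg adjusted p under 0.05. The smallest adjusted p was 0.357 as deposited and 0.524 with the sign turned. An unadjusted p under 0.05 was reached by 1320 probes (13.9%) as deposited and by 865 (9.12%) with the sign turned. An exact permutation test of 2 arrays against 2 cannot give a p below 0.333. The genes below are therefore described by their values, by whether the arrays of the mutants overlap and by 2-fold size, and none of them is a call. Separate cultures are not named in the labels for the arrays of a mutant, and the spread that enters each p-value may be no more than technical.

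Differences of both directions were found at each size. The arrays of the mutants did not overlap, as deposited, for 16.9% of the probes with fosBd/d higher and for 16.3% with fosBd/d lower, and for 14.4% and 13.6% with the sign turned. For any such probe the exact test gives its smallest p, 0.333, so that non-overlap alone sets no gene apart. The arrays did not overlap in either reading, with the same direction, for 674 probes higher (7.11%) and 535 lower (5.64%) in fosBd/d, and the direction turned with the reading for 399 (4.21%). Probes with non-overlapping arrays and at least a 2-fold difference numbered 254 higher (2.68%) and 287 lower (3.03%) as deposited, and 244 higher (2.57%) and 190 lower (2.0%) with the sign turned. In both readings at once 95 probes (1.00%) were higher and 70 (0.738%) were lower in fosBd/d. Among probes of a single gene these were 80 and 43. The direction turned with the reading, at 2-fold in each, for 9 probes (0.0949%). Averaged per gene, 3.17% of 6025 genes were at least 2-fold higher and 2.92% lower as deposited, 2.87% and 1.89% with the sign turned, and 1.21% and 0.631% in both readings; the direction turned for 4.68%, or for 0.0996% at 2-fold.

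**Figure D1:**
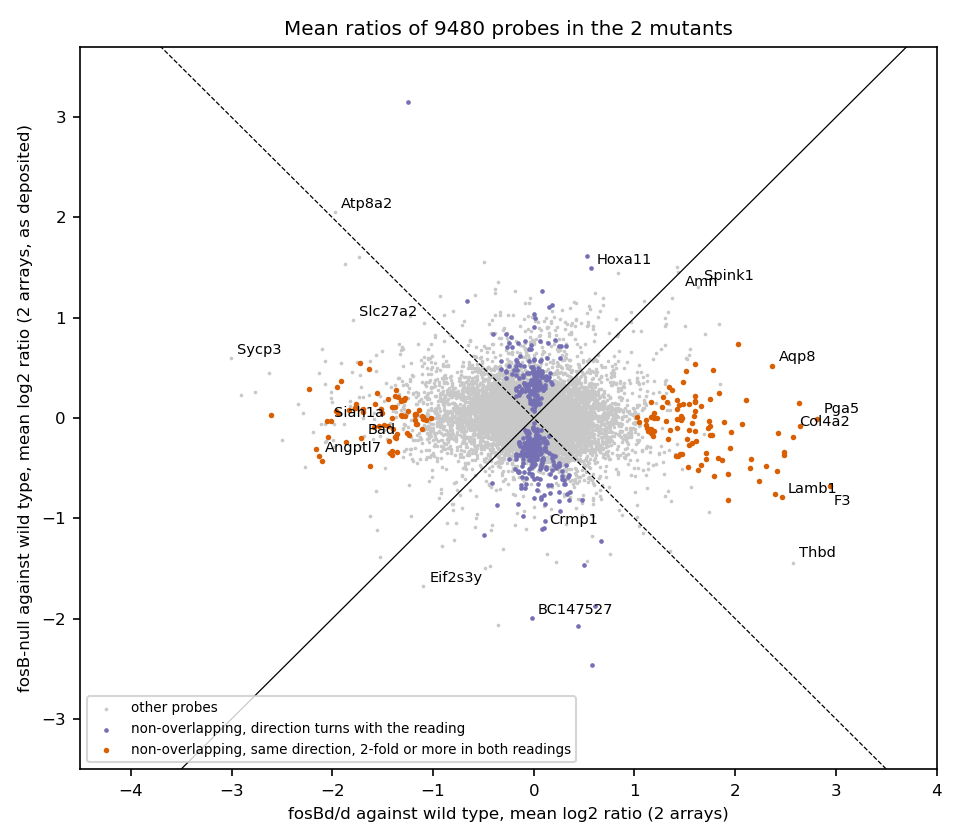
Mean log2 ratio to wild type of 9480 probes in fosBd/d (horizontal axis, 2 arrays) and in fosB-null as deposited (vertical axis, 2 arrays); a point below the solid line is higher in fosBd/d as deposited, and a point above the dashed line is higher with the fosB-null sign turned. Orange probes are at least 2-fold the same way in both readings (95 higher, 70 lower) and lie left and right of the diagonals, with fosB-null closer to 0 than fosBd/d; purple probes have non-overlapping arrays in both readings but turn direction.

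The 12 genes highest in fosBd/d in both readings included tissue factor, both chains of collagen IV and 2 cornified envelope proteins, beside a pepsinogen, transporters, a receptor, a transcription factor, a spectrin and a pseudogene. F3, tissue factor, the membrane receptor that starts blood clotting, had log2 ratios of 2.86 and 3.02 in fosBd/d and of -0.57 and -0.79 in fosB-null. Both fosBd/d values were thus far above both fosB-null values, and the difference was 3.62 ± 0.14 (SE, 2 arrays a mutant; 12.3-fold) as deposited and 2.26 (4.78-fold) with the sign turned. Pga5, a pepsinogen, stood at 2.98 and 2.65 against -0.02 and 0.00. Since fosB-null hardly left wild type, its difference hardly depended on the reading (2.82 and 2.81). Slc34a2, a phosphate transporter of epithelia, stood at 2.94 and 2.34 against -0.26 and 0.11, with differences of 2.72 and 2.56.

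Col4a1 and Col4a2, the chains of collagen IV, the main collagen of basement membranes, gave like values. Col4a1 had log2 ratios of 2.30 and 2.66 in fosBd/d and -0.16 and -0.51 in fosB-null. Col4a2 had 2.17 and 2.97 in fosBd/d and 0.20 and -0.57 in fosB-null. No fosB-null value of either chain came near a fosBd/d value, and the differences were 2.82 ± 0.25 and 2.76 ± 0.55 (SE) as deposited and 2.15 and 2.39 turned. The small proline-rich proteins of the cornified envelope, Sprr2a1 and Sprr1a, were as high in fosBd/d but spread more in fosB-null. Sprr1a stood at 2.11 and 2.50 in fosBd/d and at 0.39 and -1.35 in fosB-null. The other genes among the 12 highest were Pth1r (the parathyroid hormone receptor, 1.94 as deposited and 2.29 turned), Aqp8 (a water channel, 1.84 and 2.89), Nfia (a transcription factor, 2.94 and 1.89), Sptbn1 (a spectrin, 2.13 and 2.01) and the pseudogene Gm13597 (2.10 and 1.82). Nfia and Sptbn1 had further probes that did not show this, at 0.40 and -0.71 as deposited for Nfia and at 0.36 for Sptbn1. All 12 stayed at least 2-fold in both readings without fosBd/d replicate 1 and without replicate 2. They had been chosen on these same arrays for large differences without overlap, which favours this outcome.

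**Figure D2:**
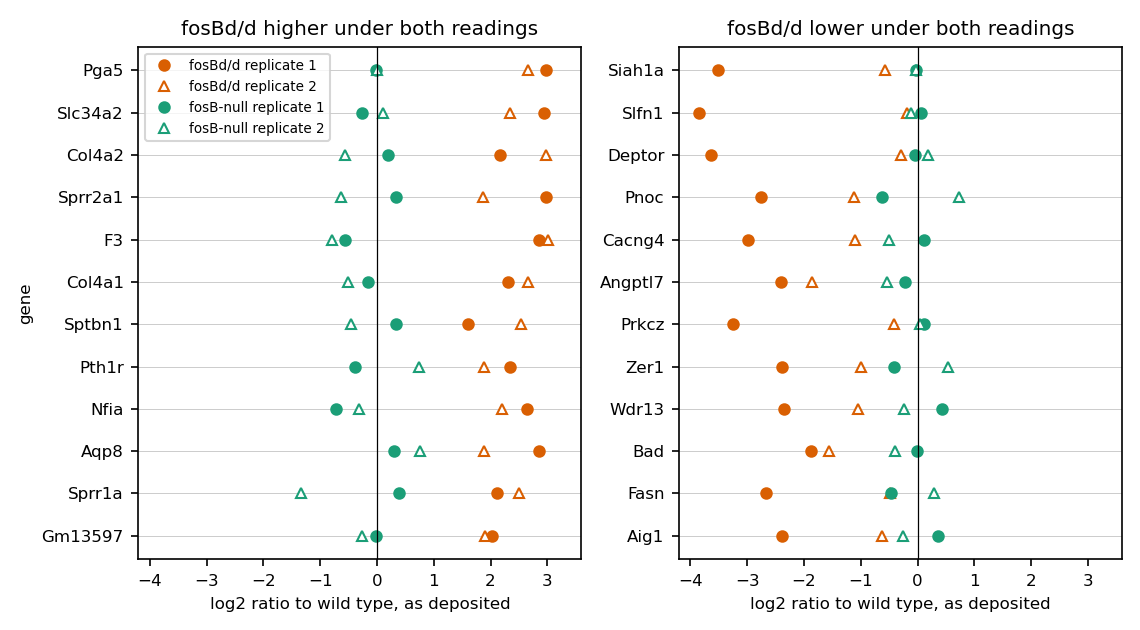
Log2 ratio to wild type on each of the 4 arrays, as deposited, for the 12 single-gene probes highest (left) and the 12 lowest (right) in fosBd/d in both readings; circles are replicate 1 and triangles replicate 2, orange fosBd/d and green fosB-null. On the left both fosBd/d arrays lie at 1.60 or above; on the right replicate 1 lies at -1.88 or below while replicate 2 reaches up to -0.18.

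Promoter windows are shown for the 2 of the 12 highest genes that hold AP-1 matches, F3 and Sprr1a, since FosB acts at such sites, and for the collagen IV genes, which stand head to head. The windows of Slc34a2 and Sprr2a1, which rank above Sprr1a, hold no match and are not printed. The windows run from 250 bases before to 50 after the start site (300 bases) and come from RefSeq on GRCm38.p6; they were found for 19 of the 24 highest and lowest genes. Capitals mark TGANTCA on either strand. F3 lies at chr3:121723287-121723586 (plus strand), with TGAATCA 146 and TGAGTCA 135 bases before the start. Sprr1a lies at chr3:92485832-92486131 (minus strand), with TGAGTCA 146 and 116 bases before the start.
F3: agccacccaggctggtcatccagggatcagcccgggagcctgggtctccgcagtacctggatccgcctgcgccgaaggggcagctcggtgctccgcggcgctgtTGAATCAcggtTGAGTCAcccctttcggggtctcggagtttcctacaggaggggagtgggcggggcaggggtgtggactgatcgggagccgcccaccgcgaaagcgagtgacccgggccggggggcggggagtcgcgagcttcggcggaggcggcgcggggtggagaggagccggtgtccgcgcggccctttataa
Sprr1a: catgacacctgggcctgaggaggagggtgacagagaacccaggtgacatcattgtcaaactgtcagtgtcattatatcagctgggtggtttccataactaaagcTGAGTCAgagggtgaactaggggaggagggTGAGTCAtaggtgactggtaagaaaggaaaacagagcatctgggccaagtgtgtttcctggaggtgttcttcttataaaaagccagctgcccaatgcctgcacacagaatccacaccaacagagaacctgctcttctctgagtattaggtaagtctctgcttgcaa
Col4a1 at chr8:11312777-11313076 (minus strand) and Col4a2 at chr8:11312555-11312854 (plus strand) hold no TGANTCA in these windows, which overlap by 78 bases; their start sites lie 21 bases apart on opposite strands.
Col4a1: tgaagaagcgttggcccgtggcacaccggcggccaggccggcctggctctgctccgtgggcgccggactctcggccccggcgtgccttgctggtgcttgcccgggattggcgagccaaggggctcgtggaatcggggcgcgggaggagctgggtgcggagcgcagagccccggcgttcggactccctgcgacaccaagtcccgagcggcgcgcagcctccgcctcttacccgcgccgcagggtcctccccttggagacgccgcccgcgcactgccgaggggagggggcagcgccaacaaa
Col4a2: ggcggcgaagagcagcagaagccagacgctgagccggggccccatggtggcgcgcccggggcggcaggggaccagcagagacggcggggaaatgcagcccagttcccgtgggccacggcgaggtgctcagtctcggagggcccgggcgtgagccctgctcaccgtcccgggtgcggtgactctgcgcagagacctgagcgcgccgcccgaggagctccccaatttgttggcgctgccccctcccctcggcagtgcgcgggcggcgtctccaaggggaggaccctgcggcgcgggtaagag
TGANTCA was present in 2 of 10 windows of the highest genes (F3 and Sprr1a) and in 1 of 9 of the lowest (Zer1), beside 8.97% of 27025 genes with a window. The cyclic AMP response element TGACGTCA was in 0 of 10 and 1 of 9 (Prkcz), beside 2.03% of genes, and the serum response CArG box in 0 of 10 and 0 of 9, beside 1.81%. A match describes these letters only and shows no binding.

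Parietal endoderm genes, those of its basement membrane included, were mostly higher in fosBd/d in both readings. Of 25 measured, 17 (68%) were higher with non-overlapping arrays in both readings and 0 lower, beside 8.90% and 6.07% of all 6025 genes. The median difference was 1.83 as deposited and 1.31 turned, beside -0.02 and -0.02 over all genes. At 2-fold in both readings there were 15 of 25, and 73 of 6025 (1.21%). Without fosBd/d replicate 1 these were 15 of 25 and 143 of 6025, and without replicate 2 they were 17 of 25 and 200 of 6025. The list was drawn up with earlier results of these arrays known, so the count describes and does not test it. In bulk RNA, more cells of a type and more RNA per cell cannot be told apart.

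The laminin trimer of early basement membranes followed collagen IV. Lama1, its α chain, stood at 2.14 and 2.17 in fosBd/d against -0.54 and -0.28 in fosB-null. Lamb1, its β chain, stood at 2.74 and 2.19 against -1.12 and -0.46. Lamc1, its γ chain, stood at 1.91 and 1.58 against -0.55 and 0.21. The 3 chains thus differed by 1.92 to 3.25 as deposited and by 1.58 to 1.74 turned, without overlap in either reading. Nidogen 1, which links laminin to collagen IV, was higher by 1.98 and 0.96, and nidogen 2 by 0.58 and 0.44. Enzymes that modify collagen in the endoplasmic reticulum lay on the same side. The prolyl 4-hydroxylase subunit P4ha2 stood at 2.03 and 1.83 against -0.54 and -0.57, P4ha1 at 1.65 and 1.85 against -0.05 and -0.12, and the lysyl hydroxylase Plod1 at 1.84 and 1.10 against -0.50 and -0.22. Their partner P4hb was higher by 1.54 and 0.98.

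Cell-surface and regulatory genes of parietal endoderm lay on the same side. Snai1, the transcription factor that drives loss of epithelial character, stood at 1.74 and 1.68 in fosBd/d against -0.46 and -0.36 in fosB-null. Pdgfra, a growth factor receptor of primitive endoderm, stood at 1.68 and 1.37 against -0.03 and -0.40. Fst, the activin antagonist follistatin, stood at 2.25 and 1.40 against -0.56 and -0.24. No fosB-null value reached a fosBd/d value for these 3 genes, in either reading. Thbd (thrombomodulin, a thrombin receptor) had the largest positive difference as deposited among the genes named here, 4.02 ± 0.83 (SE), from 3.28 and 1.86 against -1.01 and -1.88. Turned, its difference was 1.13 and the arrays overlapped: fosB-null replicate 2 (-1.88) had departed farther from 0 than fosBd/d replicate 2 (1.86). Stra6, the retinol transporter, was higher by 2.01 as deposited and by 0.04 turned. Of the members, Lgals3, Itga6, Ctsb and Krt19 overlapped in both readings, and Sod3 was lower as deposited, by 0.55 on the log2 scale (-0.55).

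Visceral endoderm genes split by reading. Of 21 measured, 7 (33.3%) were higher in both readings and 0 lower, beside 8.90% and 6.07% of all genes. As deposited 9 were higher and 0 lower, beside 20.2% and 17.2% of all genes. With the sign turned 15 were higher and 2 lower, beside 15.9% and 15.5%. The median difference was 0.31 as deposited and 0.79 turned. Aqp8, the forkhead factor Foxa2, the tight-junction protein Cldn6 and the endocytic receptor Lrp2 (megalin) led the 7. Foxa2 stood at 1.65 and 1.81 in fosBd/d against 0.17 and -0.37 in fosB-null, a difference of 1.83 and 1.63. Lrp2 stood at 1.67 and 1.90 against 0.33 and 0.62, a difference of 1.31 and 2.26.

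A second set of visceral endoderm genes had the same sign in both mutants as deposited, so that the mutants hardly differed in that reading and differed most in the other. Spink1, a trypsin inhibitor, stood at 1.38 and 1.88 in fosBd/d and at 1.52 and 1.10 in fosB-null, a difference of 0.32 as deposited and 2.94 turned. Ctsh, a lysosomal protease, stood at 1.28 and 1.57 against 1.72 and 1.29 (-0.08 and 2.93). The probe of Amn, a partner of the endocytic receptor cubilin, gave 1.44 and 1.43 against 1.44 and 1.48 (-0.02 and 2.90). These arrays overlap as deposited and lie far apart when turned. Amn's other probe differed by 0.21 and 0.43. Ttr, a carrier of thyroid hormone and of retinol-binding protein, stood at 1.01 and 1.59 against 1.12 and 0.87 (0.31 and 2.29), and Cited1, a transcriptional co-activator, at 1.67 and 1.07 against 1.05 and 1.34 (0.18 and 2.56). The placental gene Plac1 came close to this form, with arrays just apart as deposited, at 1.30 and 1.37 against 1.16 and 0.95 (0.28 and 2.39). Afp, the main serum protein of visceral endoderm, overlapped in both readings, with 1.05 and -0.29 against 0.08 and -0.06 (0.37 and 0.39).

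**Figure D3:**
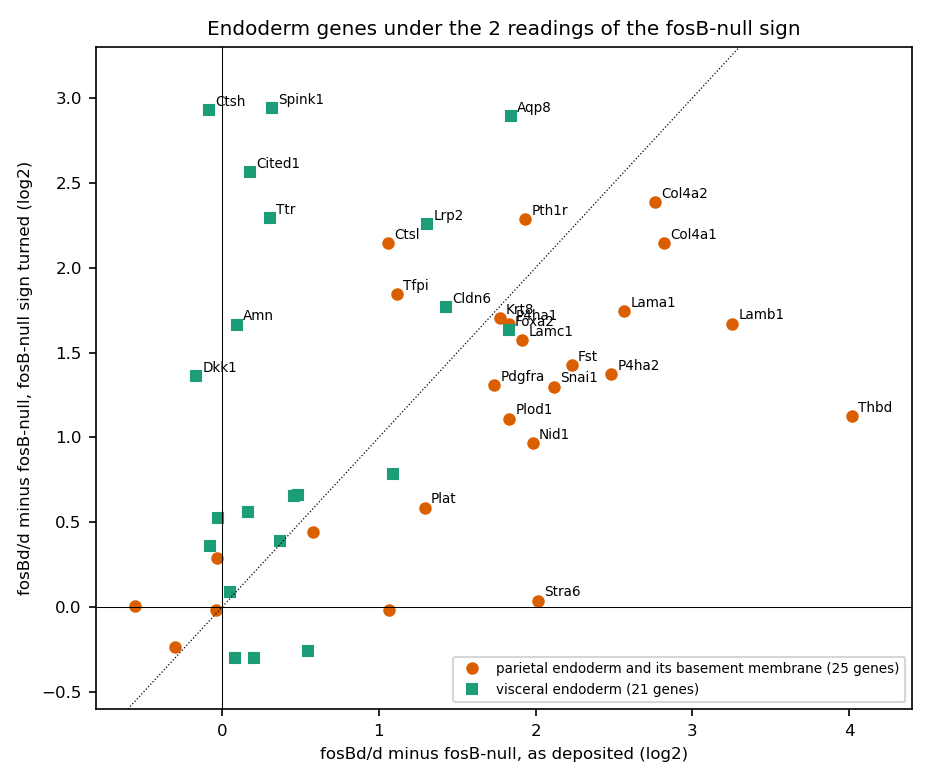
Difference between the mutants (fosBd/d minus fosB-null, log2; probes averaged per gene) as deposited (horizontal axis) and with the fosB-null sign turned (vertical axis) for 25 parietal (orange circles) and 21 visceral (green squares) endoderm genes. Most parietal genes lie to the right of 1 and above 1, while Ctsh, Spink1, Cited1 and Ttr lie near 0 on the horizontal axis and between 2.29 and 2.94 on the vertical axis.

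Of 8 transcription factors and receptors of primitive endoderm measured, 4 (50%) were higher in both readings and 0 lower. Over all genes 8.90% were higher and 6.07% lower. The medians were 0.89 and 1.10, beside -0.02 and -0.02 over all genes. Gata6, a factor that sets primitive endoderm fate, stood at 1.95 and 1.55 in fosBd/d against -0.27 and 0.64 in fosB-null, a difference of 1.56 and 1.93. Hnf4a was higher by 1.09 and 0.79, but its fosBd/d values were 1.55 and 0.33. Sox17 could not be placed: its fosBd/d arrays gave 2.83 and -1.95. Foxa2 and Pdgfra, described above with visceral and parietal endoderm, belong to this list too and are counted again here.

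Defining markers of 4 cell types besides ES cells were counted. Of 8 defining parietal endoderm markers measured, 6 were higher in both readings and 0 lower. Of 8 visceral markers 2 were higher and 0 lower. Over all genes 8.90% were higher and 6.07% lower in both readings. Markers such as Col4a1, Lama1 and Snai1 were described above, so these counts are no separate result. For feeder fibroblasts, 6 of 9 defining markers were measured, and 0 were higher and 0 lower in both readings. Their mean ratios ran from -0.53 to 0.42 in fosBd/d and from -0.85 to 0.60 in fosB-null. For trophoblast 3 of 6 were measured, with 0 higher and 0 lower, and mean ratios of -0.97 to 0.16 and of -0.06 to 0.46. In the wider list of 17 feeder genes, 3 were higher in both readings (Pdgfra, Col6a1 and S100a4, 17.6%) and 0 lower. As deposited 8 were higher and 1 lower, beside 20.2% and 17.2% of all genes. With the sign turned 3 were higher and 6 lower, beside 15.9% and 15.5% of all genes. The medians were 0.50 and 0.06. Pdgfra, also on the endoderm lists, was the member at 2-fold in both. The direction of another 4 depended on the reading: the collagen I chains Col1a1 (0.86 as deposited, -0.71 turned) and Col1a2 (0.98 and -0.49), the matrix protein Tnc (0.97 and -0.74) and fibulin Fbln2 (0.89 and -0.32). In these 4 fosB-null was the mutant that left wild type.

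Genes of clotting, fibrinolysis and protease inhibition formed the next group. Of 26 measured, 9 (34.6%) were higher in both readings and 1 lower (all genes: 8.90% and 6.07%), with medians of 0.92 and 0.91; 3 of the 26 are also on the parietal endoderm list. Beside F3, Tfpi, the inhibitor of the tissue factor pathway, stood at 1.39 and 1.57 in fosBd/d against 0.51 and 0.22 in fosB-null (1.12 and 1.84). Plaur, the urokinase receptor, stood at 1.18 and 1.66 against 0.22 and -0.24 (1.43 and 1.41). Serping1, the C1 inhibitor, stood at 1.72 and 1.34 against -0.37 and -0.61 (2.02 and 1.04). For these 3 genes and for prothrombin (F2, 1.27 and 1.06), protein S (Pros1, 0.99 and 1.15) and the thrombin receptor F2r (0.89 and 1.16) the mutants did not overlap in either reading. Thbs1, thrombospondin, resembled Thbd, with 2.23 as deposited and -0.06 turned. The member lower in both was F5, a clotting cofactor (-0.73 and -0.50).

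Of 23 keratins and epithelial junction genes, 8 (34.8%) were higher in both readings and 1 lower (all genes: 8.90% and 6.07%), with medians of 0.80 and 0.39. Of the 23, 2 are also on the parietal endoderm list and 1 on the visceral endoderm list. Krt8, the keratin of simple epithelia, stood at 1.65 and 1.82 in fosBd/d against -0.12 and 0.05 in fosB-null (1.77 and 1.70). Ap1m2, an epithelial sorting adaptor subunit, was higher by 3.16 and 1.64, but its fosBd/d arrays gave 1.24 and 3.56 (SE 1.20). Smaller differences held for the junction proteins Tjp1 (0.80 and 0.39), Ctnna1 (0.83 and 0.18) and Epcam (0.58 and 0.48). The lower member was N-cadherin, Cdh2 (-0.40 and -0.45). E-cadherin, Cdh1, was higher by 1.04 as deposited and by 0.07 turned.

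Annexins and S100 proteins, which bind calcium and membranes, were higher in both readings for 9 of 17 (52.9%) and lower for 0, beside 8.90% and 6.07% of all genes, with medians of 0.50 and 0.44. Of the 17, 2 are also on the clotting list and 1 on the feeder list. Anxa2 stood at 1.20 and 0.91 in fosBd/d against -0.12 and 0.13 in fosB-null (1.05 and 1.07), and Anxa4 at 0.75 and 1.19 against -0.01 and -0.28 (1.11 and 0.82). S100g, a calbindin, stood at 1.38 and 1.65 against 1.27 and -0.07, so that a fosB-null array came close to fosBd/d.

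Among 26 serum early response genes, those that growth factors induce within hours, 9 (34.6%) were higher in both readings and 1 lower, against a background of 8.90% and 6.07%, with medians of 0.49 and 0.33. Of the 26, 3 are also on the clotting list and 2 on the list of AP-1 subunits. Ccn1, a secreted matrix protein, stood at 1.38 and 1.52 in fosBd/d against -0.40 and -0.31 in fosB-null (1.81 and 1.10). Hbegf, a ligand of the epidermal growth factor receptor, was higher by 1.07 and 0.73, Klf6 by 0.74 and 0.83 and Egr3 by 0.66 and 0.96. The Klf6 values average its probes. A Klf6 probe with means of 0.78 in fosBd/d and 0.10 in fosB-null did not stand apart in both readings. The lower member was cyclin D1, Ccnd1, with -0.45 and -0.44 against 0.18 and 0.09. Actb, Srf, Ier2 and Gadd45b overlapped in both readings.

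Of the 7 AP-1 subunits measured, 1 (14.3%) was higher in both readings and 0 lower, beside 8.90% and 6.07% of all genes, with medians of 0.51 and 0.04. Jund, a dimer partner of FosB, stood at 0.55 and 0.45 in fosBd/d against -0.10 and 0.08 in fosB-null (0.51 and 0.48). Fos stood at 0.11 and 0.82 against -0.10 and -0.76, apart as deposited (0.90) and overlapping when turned (0.04). Atf2 stood at 0.23 and 0.00 against -0.85 and -1.21, and its direction turned with the reading (1.15 and -0.91). The direction of Atf4 turned as well, without overlap in either reading (-0.30 and 0.36). Junb (-0.15 and 0.31), Maff (0.61 and -0.03) and Maf (-0.13 and -0.03) made up the rest.

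Secretory and metabolic genes followed in part. Among 26 heat shock and chaperone genes 5 (19.2%) were higher in both readings and 0 lower (background 8.90% and 6.07%), with medians of 0.11 and 0.01, and they were the endoplasmic reticulum proteins P4hb, Hspa5 (1.05 and 0.85), Calr (0.71 and 0.52) and Hsp90b1 (0.66 and 0.50) and the small heat shock protein Cryab. Cryab stood at 1.70 and 2.04 in fosBd/d against -0.27 and -0.57 in fosB-null (2.29 and 1.45). Of 16 glycolysis and hypoxia genes, 5 (31.3%) were higher and 0 lower, with medians of 0.37 and 0.49; P4ha1 and P4ha2 are among them, as is Ndrg1 (1.31 and 1.05). The imprinted growth factor Igf2 stood at 0.91 and 1.43 against 0.07 and -0.37 (1.32 and 1.02). The noncoding RNA Meg3 was lower, with -0.99 and -0.74 against 0.19 and 0.30 (-1.11 and -0.62), averaged over its probes. A Meg3 probe with means of -0.59 in fosBd/d and 0.24 in fosB-null did not stand apart in both readings.

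Genes lower in fosBd/d in both readings were found in the pluripotency, cell cycle and amino acid lists. Of 11 pluripotency genes, 4 (36.4%) were lower and 1 higher in both readings, where 6.07% of all genes were lower and 8.90% higher, and the median was 0.13 as deposited and -0.58 turned. Nr5a2, a nuclear receptor that sustains Oct4 expression, stood at -0.94 and -0.71 in fosBd/d against 0.26 and 0.23 in fosB-null (-1.07 and -0.58). Alpl, alkaline phosphatase, stood at -0.64 and -0.93 against -0.49 and -0.24 (-0.42 and -1.15). Zfp42, Rex1, stood at -0.72 and -0.37 against 0.02 and -0.21 (-0.45 and -0.64), and Tcl1 differed by -0.37 and -0.66. The member higher in both was Lin28a (0.59 and 0.20). None of these reached 2-fold in both readings.

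Of 38 cell cycle and replication genes, 7 (18.4%) were lower and 1 higher in both readings (all genes: 6.07% and 8.90%), with medians of -0.07 and -0.28. The lower members included the mitotic cyclin Ccnb2 (-0.53 and -0.69) and its kinase Cdk1 (-0.53 and -0.46). The member higher was Ccnd2, cyclin D2, with 2.28 and 1.61 in fosBd/d against -0.17 and -0.43 in fosB-null (2.25 and 1.64), opposite to cyclin D1. Of 14 genes of amino acid and one-carbon metabolism under ATF4, 3 (21.4%) were lower and 0 higher, with medians of -0.33 and -0.32. Psph, the last enzyme of serine synthesis, stood at -1.12 and -0.69 against 0.37 and 0.25 (-1.22 and -0.60), and the mitochondrial folate enzyme Mthfd2 at -0.72 and -0.85 against 0.13 and 0.39 (-1.04 and -0.53).

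**Figure D4:**
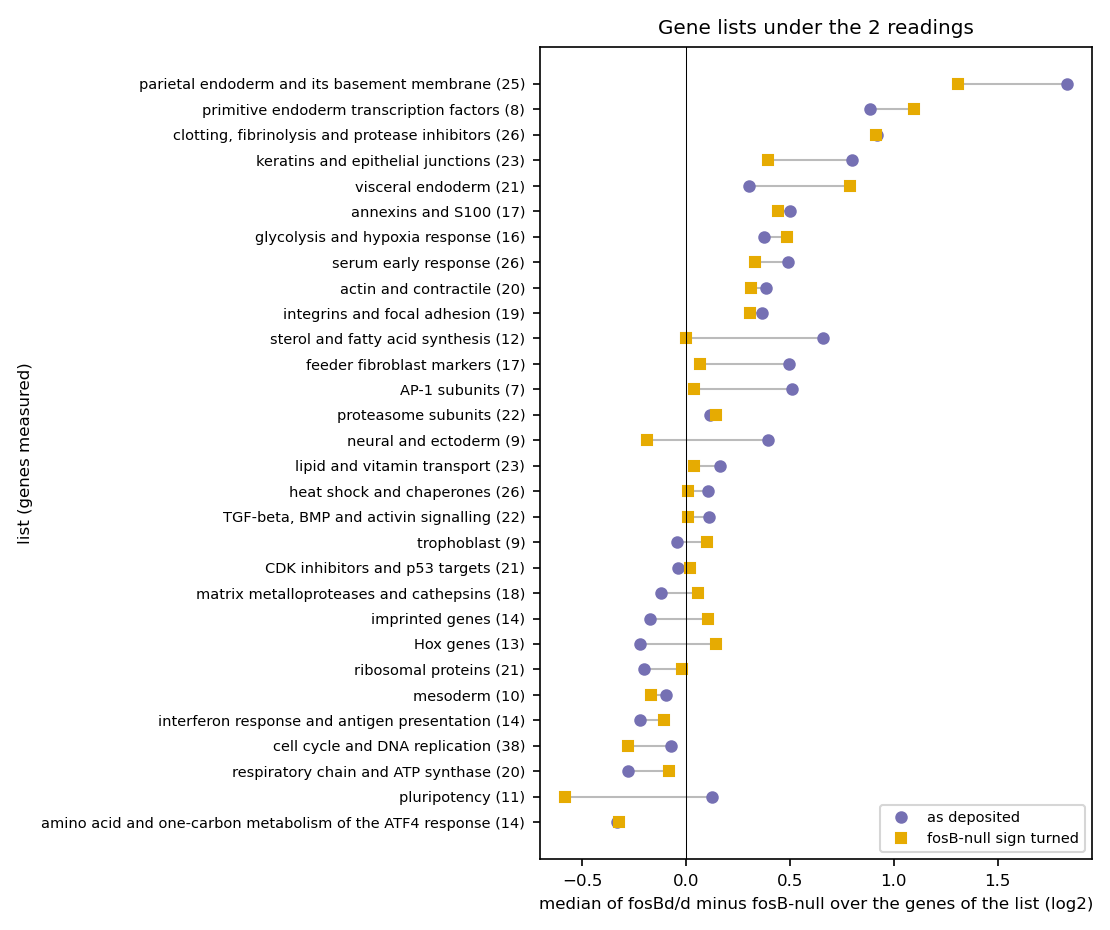
Median difference between the mutants (log2) over the measured genes of each list, as deposited (purple circles) and with the fosB-null sign turned (yellow squares), ordered by the mean of the 2. Parietal endoderm leads with 1.83 and 1.31, against -0.02 and -0.02 over all genes, and pluripotency, Hox and neural lists lie on different sides of 0 in the 2 readings.

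The other lists are given by their counts, beside 8.90% higher and 6.07% lower over all genes. In both readings, higher and lower members were 3 and 0 of 19 integrin and focal adhesion genes, 3 and 2 of 20 actin genes, 4 and 0 of 18 matrix proteases and cathepsins, 4 and 2 of 22 TGF-beta family genes, 3 and 0 of 12 sterol synthesis genes and 4 and 0 of 23 lipid transport genes. They were 0 and 2 of 21 CDK inhibitors and p53 targets, 1 and 0 of 22 proteasome subunits, 0 and 1 of 20 respiratory chain genes, 0 and 0 of 14 interferon genes, 0 and 0 of 21 ribosomal protein genes, 3 and 2 of 14 imprinted genes, 0 and 0 of 3 Y-linked genes and genes of X inactivation, 1 and 0 of 10 mesoderm, 1 and 1 of 9 neural and 1 and 0 of 9 trophoblast genes. Of the 23 lipid transport genes, 8 are also on the visceral endoderm list. Gelsolin, Gsn, an actin-severing protein, stood out with 1.91 and 1.36 against -0.64 and -0.40 (2.15 and 1.12). Cathepsin L, Ctsl, stood at 1.40 and 1.81 against 0.64 and 0.45 (1.06 and 2.15). Of the 13 Hox genes, 0 were higher or lower in both readings and 3 turned direction. Hoxa11, a patterning factor, stood at 0.10 and 1.03 against 1.68 and 1.31 (-0.93 and 2.06). Hoxa10 stood at 3.07 and 3.22 in fosB-null, and at -2.49 and an exact 0 in fosBd/d (-4.39 and 1.90).

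The genes lowest in fosBd/d in both readings rested on fewer arrays than the highest. Angptl7, a secreted angiopoietin-like protein, stood at -2.41 and -1.87 in fosBd/d against -0.23 and -0.54 in fosB-null (-1.75 ± 0.31, SE, as deposited and -2.52 turned). Bad, a promoter of apoptosis, stood at -1.88 and -1.56 against -0.01 and -0.39 (-1.52 ± 0.25 and -1.92). For these genes both fosBd/d arrays lay well below fosB-null. The E3 ubiquitin ligase gene Siah1a, by contrast, stood at -3.52 and -0.58 in fosBd/d, Slfn1 at -3.85 and -0.18 and Deptor, an inhibitor of mTOR, at -3.63 and -0.29. Pnoc, Cacng4, Prkcz, Zer1, Wdr13, Fasn and Aig1 completed the 12. Of these 12, 5 were at least 2-fold below wild type on fosBd/d replicate 2 and 12 on replicate 1. Without replicate 1, 3 of 12 stayed at least 2-fold in both readings (Angptl7, Bad and Pnoc), whereas without replicate 2 all 12 did. Fasn, fatty acid synthase, had a further probe at 0.61 as deposited, and Zer1 one at -0.73 as deposited and 1.56 turned.

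The low end of fosBd/d replicate 1 was also uneven along the numbering of the probes. On that array 251 probes lay below a log2 ratio of -2, and 175 of them (69.7%) fell in bins 1, 11 and 12 of 12 equal bins of probe number, which hold 25.1% of the probes. On fosBd/d replicate 2, 38 probes lay below -2 and 3 of them were in these bins, and 74 lay above 2, of which 30 (40.5%) were. Of the 70 probes at least 2-fold lower in both readings 36 (51.4%) were in these bins, 23 in bin 11, 13 in bin 12 and 0 in bin 1, against 17 of the 95 higher (17.9%). Of the named genes, 9 of the 12 lowest and 3 of the 12 highest were. The part of this in the lower genes was not tested.

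**Figure D5:**
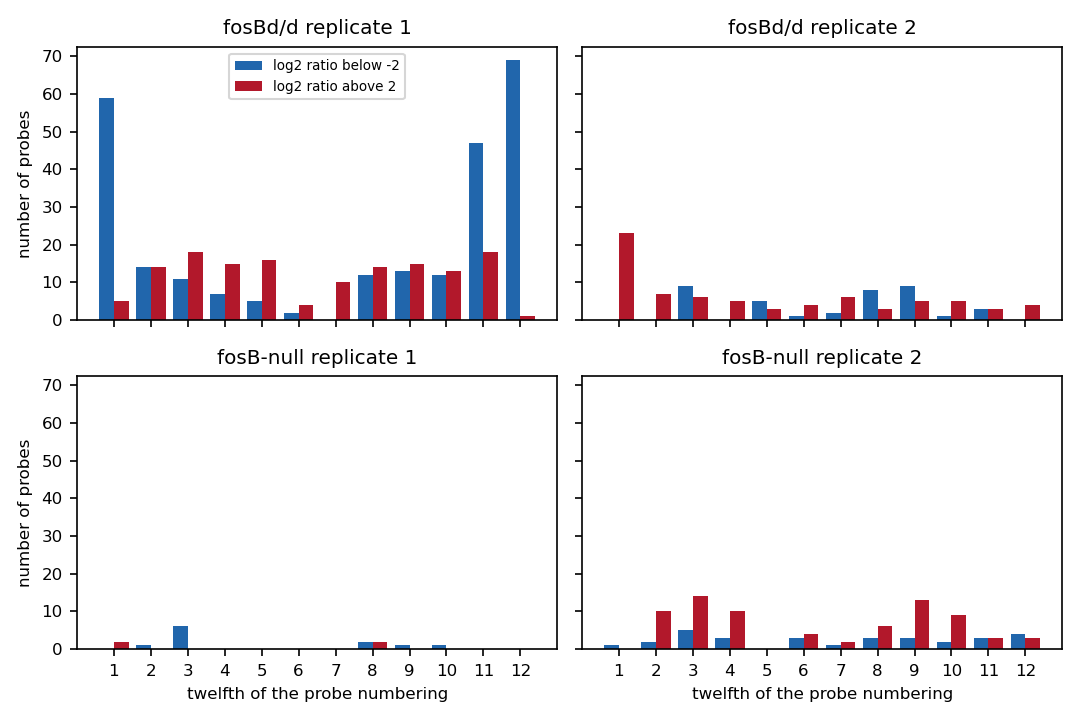
Number of probes with a log2 ratio below -2 (blue) or above 2 (red) in each of 12 equal bins of probe number, for each array. On fosBd/d replicate 1 the blue bars stand highest in bins 1, 11 and 12, which hold 175 of its 251 probes below -2.

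In some genes the sign of the difference depended wholly on the reading because fosB-null, and not fosBd/d, left wild type. BC147527 stood at -0.46 and 0.42 in fosBd/d and at -1.94 and -2.05 in fosB-null, a difference of 1.98 as deposited and -2.02 turned. Crmp1, a neuronal cytoskeletal protein, stood at 0.28 and -0.10 against -1.06 and -1.14 (1.19 and -1.02), and Abcb1a, a drug efflux pump, at 0.05 and 0.16 against -1.28 and -0.91 (1.20 and -0.99). Both fosB-null arrays were low in these 3 genes, and in Crmp1 and Abcb1a both fosBd/d arrays were near 0. Adgre5, Tnc and the kinase Mapk13 had the same form with differences of 0.80 to 0.97 as deposited. On the positive side of fosB-null, the heat shock gene Hspa1a stood at 0.14 and -0.12 against 1.07 and 0.92 (-0.99 and 1.01), with a further probe at -0.06 and 0.27. Zxdb, Phyhd1, Pde12 and the nuclear receptor co-repressor Nrip1 differed by -0.70 to -1.18 as deposited and by 0.83 to 1.35 turned, and Nrip1's other probe differed by 0.17 and 0.11.

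The extremes of a single reading were in part those of both: 4 of the 8 highest and 0 of the 8 lowest as deposited, and 3 of the 8 highest and 2 of the 8 lowest with the sign turned, were among the 24 genes ranked on both readings. As deposited, Clu (clusterin, a secreted chaperone) stood at 2.17 and 2.30 against -0.65 and -0.60, a difference of 2.86 ± 0.07 (SE), and 1.61 turned. At the other end Atp8a2, a phospholipid flippase, stood at -2.68 and -1.27 against 1.89 and 2.21, which gave -4.03 as deposited and 0.08 turned. Slc27a2, a fatty acid transporter, stood at -1.92 and -1.67 against 1.23 and 0.72 (-2.77 and -0.82). In these genes the mutants had opposite signs as deposited. Sycp3, Bves, Cxcl15, Shisa2, Fibin and the noncoding RNA A630023P12Rik also had differences of -2.40 to -3.61, and on fosBd/d replicate 2 none of these 6 lay below -0.81. With the sign turned, Srgn, a proteoglycan core protein, was among the highest (1.68 and 2.38 against 1.12 and 0.35; 2.76). The Y-linked Eif2s3y, a translation initiation factor subunit, was the lowest, with -0.70 and -1.50 in fosBd/d and -1.93 and -1.43 in fosB-null (0.58 as deposited and -2.78 turned). Cav3, caveolin of muscle, stood at -2.03 and -1.11 against -0.82 and -0.63 (-0.84 and -2.30). Strada, Synm, Map7d2 and 2810454H06Rik, the others at this end, lay between -4.05 and -4.83 on fosBd/d replicate 1 and between -0.17 and 0.18 on replicate 2. For Strada, Synm and 2810454H06Rik the difference as deposited changed sign without fosBd/d replicate 1 (0.67, 0.06 and 0.14). So did the turned difference of Sycp3 (0.29), Bves (1.35) and Cxcl15 (2.09). Synm had a further probe that did not show the low value, at 0.32 as deposited and 0.04 turned.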

How the data were processed

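RNA of mouse ES cells was hybridised to 4 two-colour Agilent cDNA arrays, each with 1 mutant and wild type, with dyes exchanged between the arrays of a mutant. The authors deposited 1 log ratio (taken as log10) per probe and array, made with Agilent Feature Extraction per the submitters' processing notes. The base is not stated; it is read as log10, as that software defines its log ratio, and was multiplied by 3.32 (the log2 of 10), so every fold rests on that base. Its version, background correction, dye normalization and filters are unstated, and signal intensities were not analysed. The number of arrays limits the precision.

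Exact zeros carry a minus sign on fosBd/d replicate 1 (960) and fosB-null replicate 2 (551) and none on fosBd/d replicate 2 (423) and fosB-null replicate 1 (478). The marked arrays were taken as turned before deposit, and the dye term of the model follows the marks. Replicates were numbered in accession order, so the numbers pair no arrays. All arrays have a median of 0, which leaves centring and direction open.

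Differences were tested in R 4.3.3 with limma 3.58.1 (lmFit and eBayes, two-sided, Benjamini-Hochberg over 9480 probes, threshold 0.05), checked on simulated data. The SE comes from the spread of the 2 arrays of each mutant. Probes were named from a platform table of 2007, with 6496 of 6566 single-gene probes updated through a RefSeq gene table (GRCm38.p6) and 70 kept under older names. Gene lists (31) average a gene's probes per array, so a single probe of a list member can differ from the values given.

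Named genes were, among single-gene probes with non-overlapping arrays and no exact 0, the 12 highest and 12 lowest in both readings (by the smaller difference), the 6 positive and 6 negative fosB-null means of which the direction turns, the 8 highest and 8 lowest in each reading, and up to 4 members a list. Other list members, among them Sox17, Thbs1, Stra6 and Afp, were chosen after their values were seen. The comparison, its members and the lists were chosen with earlier results of these data known. The alternatives tried are given with their effects in the closing section.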

Additional observations from a re-analysis of the deposited data

Results flagged for a closer look

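Of the 59 genes named by size, 15 had both fosBd/d arrays on one side of 0 and both fosB-null arrays on the other as deposited. Some of the 15 had a mutant near wild type. In fosB-null Prkcz stood at 0.11 and 0.05 and Gm13597 at -0.02 and -0.26. In fosBd/d Abcb1a stood at 0.05 and 0.16 and Tnc at 0.21 and 0.02. The 59 were chosen by the size of their differences, and no share over all probes was counted. The opposite signs were not tested, and none of the 15 passed limma (smallest adjusted p 0.357). They would become the same sign with the fosB-null sign turned. The difference, fosBd/d minus fosB-null as deposited on the log2 scale, was positive in 10 of them. It was 4.02 for Thbd, 3.62 for F3, 3.25 for Lamb1, 3.16 for Ap1m2 and 2.94 for Nfia. It was 2.86 for Clu, 2.82 for Col4a1, 2.10 for Gm13597, 1.20 for Abcb1a and 0.97 for Tnc. It was negative in the other 5, with -1.91 for Prkcz, -2.77 for Slc27a2, -3.41 for Bves, -3.61 for Sycp3 and -4.03 for Atp8a2. For Prkcz, Bves and Sycp3 fosBd/d replicate 2 stood at -0.42, -0.18 and -0.31.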

How the results depend on the processing

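In limma 0 probes passed at an adjusted p under 0.05 in every alternative run, in both readings. The number with an unadjusted p under 0.05, 1320 as deposited and 865 turned, was 539 and 361 without a dye term, 153 and 141 with the dye term taken from the labels, and 149 to 827 and 156 to 730 when an array was left out, lowest in both readings without fosB-null replicate 2 and then without fosB-null replicate 1 (260 and 201). The fits with an array left out also had no dye term, so their numbers compare with 539 and 361 and not with 1320 and 865. Against 539 and 361 they rose without either fosBd/d array and fell without either fosB-null array, in both readings. Their spread comes only from the mutant that kept both arrays, so these shifts do not show the effect of the missing array alone. No replicate numbers stand in the labels. With arrays paired by dye orientation as a replicate block, the numbers with an unadjusted p under 0.05 were 153 and 865. This pairing is by construction the label dye term as deposited and the main model with the sign turned. It therefore repeats their numbers and is no separate check. Leaving out an array makes non-overlap easier by construction. Non-overlapping probes then numbered 5877 to 6487 as deposited (3145 with all arrays), 5416 to 6335 turned (2651), 987 to 1968 higher in both (674) and 876 to 2292 lower in both (535). Probes past 2-fold numbered 1023 to 1579 as deposited (541), 670 to 1502 turned (434), 89 (without fosB-null replicate 1) to 411 (without fosBd/d replicate 2) higher in both (95) and 77 to 584 lower in both (70). At 1.5-fold these 4 counts were 1477, 1026, 261 and 171. With arrays scaled to the same spread, 63 were higher and 37 lower in both. Without the first and last sixth of the probe numbering, an alternative chosen after seeing the data, fewer probes were counted: 340 past 2-fold as deposited, 287 turned, 34 lower in both, and 343 non-overlapping and lower in both. With both differences of arrays of the same zero mark required to be 2-fold, also added afterwards, 281 and 219 were counted. Differences of genes chosen for non-overlapping arrays in a reading cannot change sign there when an array is left out. In the reading that did not choose them, a check added after seeing the data found a change of sign for 9 of the 59 genes. Without fosBd/d replicate 1, Strada went from -1.79 to 0.67, Synm from -2.27 to 0.06 and 2810454H06Rik from -1.84 to 0.14 as deposited, and Sycp3 from -2.41 to 0.29, Bves from -0.34 to 1.35 and Cxcl15 from -0.12 to 2.09 with the sign turned. Ctsh and Cited1 as deposited and Atp8a2 turned, which lay near 0, changed sign too. The list medians of parietal and visceral endoderm kept theirs over 7 alternatives each, at 1.68 to 2.15 as deposited and 1.09 to 1.57 turned for parietal and 0.11 to 0.43 and 0.62 to 1.36 for visceral endoderm. The AP-1 median turned ranged from -0.29 to 0.27, the feeder median turned from -0.16 to 0.19 and the pluripotency median as deposited from -0.22 to 0.21, so these have no stable sign. Heat shock medians changed sign too, at -0.08 to 0.36 as deposited and -0.05 to 0.27 turned. So did those of proteasome, CDK inhibitor, matrix protease, mesoderm and trophoblast genes in both readings. The TGF-beta, actin, sterol, lipid transport and ribosomal medians did so turned, and the imprinted median as deposited.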

Other observations

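By chromosome, the difference between the mutants stayed near 0. Over the 20 chromosomes with at least 100 measured genes (158 to 518 each), the median difference lay between -0.13 and 0.05 as deposited and between -0.07 and 0.04 with the fosB-null sign turned. For the 502 genes with several probes, the difference on the first probe correlated with that on the second with r = 0.233 as deposited and r = 0.115 turned; this is across genes, which are not independent replicates.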
